A study of Mus musculus with 32 samples.

Results

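Gene expression at 16 days post partum (dpp) was compared with that at 14 dpp, the interval of the juvenile mouse testis in which late pachytene and diplotene spermatocytes enter the germ cell population. The comparison used 10 of the 32 samples of the series: germ cells of 5 male C57BL/6J mice at 14 dpp and of 5 others at 16 dpp, untreated and of 1 inbred strain. Each sample held the germ cells isolated from the testes of 1 mouse after Liberase digestion and washing of the tubules, measured by RNA-seq of poly-A RNA. Levels are given in TPM, a transcript's share of all transcripts scaled to a fixed total, and fold changes are differences of mean log2(TPM + 1), which understate the change of genes with few transcripts. The other 18 juvenile mice (8, 10, 12 and 18 dpp) shared the estimate of the spread, and 4 adult samples of enriched pachytene and diplotene spermatocytes pooled from several C57BL/6J males of 9 weeks, sorted by sedimentation and normalized separately, were used for levels alone. The samples were mixtures of cells, so that more cells of a type and more RNA per cell cannot be told apart.

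The first meiotic wave in the mouse testis is nearly synchronous, and each new cell type therefore appears at a predictable age. In early pachynema the chromosomes are fully synapsed and transcription is low. From mid-pachynema on, the autosomes are transcribed strongly, under regulators that include A-MYB, and many messages for the later sperm are made ahead of their use. The X and Y chromosomes, which have little homology, are already enclosed in the XY body and silenced by early pachynema. This is called meiotic sex chromosome inactivation.

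All 20368 genes with at least 3 TPM in 1 or more juvenile mice were tested with limma. Of these, 15025 were Ensembl genes, 76 were piRNA precursors and the rest were NONCODE long noncoding RNAs. At an adjusted p below 0.05, 2594 genes (12.7%) were higher at 16 dpp and 2296 (11.3%) were lower. The rises were large and the falls small. At least a 2-fold change was found for 1091 rises (5.36%) and for 23 falls (0.113%). The median log2 fold change was 0.85 among the rises, -0.34 among the falls and -0.06 over all genes tested. The 5 mice of 1 age all lay beyond the 5 of the other in 3164 called genes (15.5%), 2016 of them rises and 1148 falls, and in 3683 genes (18.1%) whether called or not. Rises made up 53.0% of the calls on the TPM scale, 66.3% after median-of-ratios scaling and 41.6% after quantile normalization. Neither scaling moved the median of all genes by more than 0.06 on the log2 scale.

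The count of falls rested on fewer mice than the count of rises. Without 16 dpp mouse 1 the falls numbered 1430 and the rises 2108, and without 16 dpp mouse 5 they numbered 1520 and 2263. Without both mice, an alternative chosen after seeing the data, 1507 rises and 525 falls were called. In the mice numbered 1 to 3 alone the counts were 2677 rises and 1565 falls, and in the later-numbered mice (6 and 7 at 14 dpp, 4 and 5 at 16 dpp) 1424 and 1146. These number sets are not a labelled batch. Replicates correlated at 0.978 to 0.982 over genes at 14 dpp and at 0.967 to 0.977 at 16 dpp (Pearson's r of log2(TPM + 1), 10 pairs at each age).

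The preparation also held Sertoli cell RNA, although the labels call the samples germ cells. The 14 Sertoli markers, among them clusterin (Clu) and the anti-Müllerian hormone gene Amh, summed to between 8193 and 10070 TPM in the 14 dpp mice and to between 7382 and 9975 TPM in the 16 dpp mice. The groups overlapped, since 16 dpp mouse 3 was as high as the 14 dpp mice. None of the 14 rose and 8 fell, against 12.7% and 11.3% of all genes tested. The falls were those of Kitl, Amh, Dhh, Wt1, Sox9, Aard, Inhbb and Cldn11. Of the 14, 8 fell in mice 1 to 3 and 5 in the later-numbered mice. Under either scaling 6 fell, and without 16 dpp mice 1 and 5 only 2. The median log2 change of the 14 markers was -0.29, against -0.06 over all genes. With the log2 of this sum as a covariate, an alternative chosen after seeing the data, 1986 rises and 1239 falls were called. The part of Sertoli cells in the falls was not tested further. Spermatid RNA was near the detection limit. Prm1 and Prm2, the protamines that define elongating spermatids, were at 0 in all 10 mice, and Tnp1 reached at most 1.55 TPM. Of the 3 spermatid markers tested 1 was called, Spata18, which averaged 0.336 ± 0.101 TPM in the 14 dpp mice and 1.87 ± 0.378 TPM in the 16 dpp mice (SD).

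The 10 largest rises were ranked among Ensembl genes with a full symbol, and Gm, Rik and NONCODE genes, some with larger changes, are described apart. Most of the 10 were low at 14 dpp. Pebp4 (chr14:69840420-70059918 on GRCm38, plus strand), a gene of the phosphatidylethanolamine-binding protein family, stood at 1.73, 0.23, 0.24, 1.06 and 0.28 TPM in the 5 mice of 14 dpp and at 61.2, 23.3, 23.1, 25.4 and 52.0 TPM in the 5 mice of 16 dpp. Every 16 dpp mouse was thus far above every 14 dpp mouse, with mice 1 and 5 the highest. The log2 fold change was 4.43 ± 0.30 (SE, limma adjusted p = 1.84e-10). Pebp4 then reached 169 ± 71.0 TPM at 18 dpp (SD, n = 5) and 550 ± 16.6 TPM in adult spermatocytes (SD, n = 4). It overlaps Gm33524 on the opposite strand, and no source used here says that the libraries kept strand.

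A pair of genes of the MARVEL-domain family on chromosome 8 followed. Cmtm2b (chr8:104322230-104330764, plus strand) was between 0.68 and 2.01 TPM at 14 dpp and between 25.8 and 84.0 TPM at 16 dpp, with a log2 fold change of 4.34 ± 0.33. Its neighbour Cmtm2a (chr8:104281042-104293181, minus strand) was between 0.80 and 4.75 TPM and then between 43.5 and 126 TPM, with a log2 fold change of 4.31 ± 0.32. The 2 genes are close copies that can share reads, Cmtm2a also overlaps Cmtm1 and Cmtm2b overlaps Gm45878, so the split between them is uncertain.

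The other largest rises had roles in metabolism, stress proteins and sperm. Pgam2, which encodes the phosphoglycerate mutase of muscle and sperm, was at 4.39, 2.66, 2.09, 7.68 and 3.84 TPM at 14 dpp and at 179, 63.2, 72.6, 73.5 and 129 TPM at 16 dpp. Its log2 fold change was 4.32 ± 0.34, and the ages did not overlap. Hspb9, a small heat shock protein of the testis, went from 2.39 ± 1.68 to 65.4 ± 31.2 TPM. Crisp2, a cysteine-rich secretory protein of the acrosome and sperm tail, went from 10.2 ± 5.31 to 164 ± 75.7 TPM. Tdrd6, a Tudor protein of the chromatoid body, went from 2.09 ± 0.953 to 44.1 ± 17.7 TPM. Stpg4, the phospholipase and acyltransferase gene Hrasls5, and Pbp2 completed the 10, with log2 fold changes of 4.05 ± 0.32, 3.98 ± 0.30 and 3.75 ± 0.31. All 10 passed the test under each of the 26 alternatives, with log2 fold changes from 2.77 to 5.77.

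**Figure D1:**
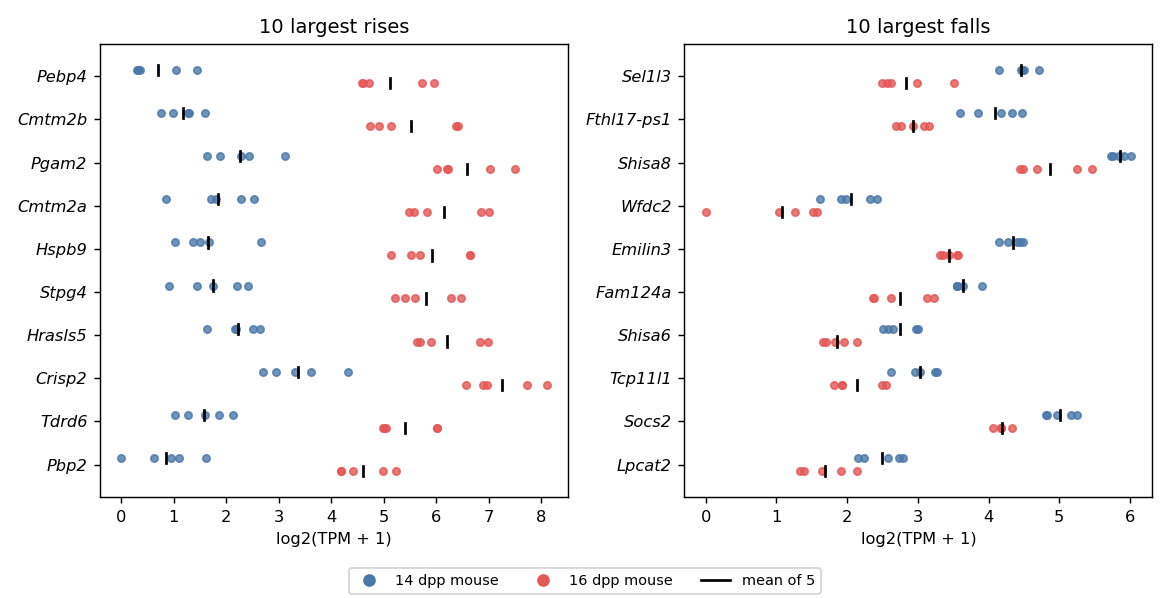
Level of the 10 genes with the largest rises (left) and the 10 with the largest falls (right) among Ensembl genes other than Gm and Rik genes. Each point is 1 mouse on the log2(TPM + 1) scale, blue for 14 dpp and red for 16 dpp, and black bars are means of 5 mice. The ages do not overlap in any of these genes by the rule that chose them, and the scale shows that the rises were larger than the falls.

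Promoter sequences were examined for the genes that moved together. RefSeq promoters on GRCm38.p6, each 300 bases from 250 before to 50 after a transcription start, were available for 11128 of the tested genes. The motifs sought on both strands were the core of the MYB site (TAACNG or CAACNG), the full cAMP response element (TGACGTCA) and an RFX half-site (GTTGCC). The MYB letters were present in 69.6% of the 744 promoters of genes at least 2-fold higher at 16 dpp, in 41.0% of the 1997 promoters of genes that fell, in 46.2% of the promoters of all genes tested and in 49.7% of all 32851 promoters. The RFX half-site was present in 23.1%, 10.8%, 13.0% and 12.5% of the same sets, and the cAMP response element in 2.15%, 2.75%, 2.90% and 1.79%. Base composition moved with these shares: mean GC content was 56.2% in the 2-fold rises, 62.9% in the falls and 60.4% in all genes tested, and its part in the shares was not tested. A match is a description of the letters and not of a bound site.

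The 150 bases before the RefSeq start are shown for the paired Cmtm2 genes, for Piwil1, Ldhc (the first of its RefSeq starts) and Pgam2. Capitals mark the MYB letters, or in Pgam2 the RFX half-site. In Ldhc 3 overlapping or touching MYB matches form 1 run of capitals. The Ldhc window runs past the start of the gene as GENCODE places it, and all its marked letters lie beyond that start. They were chosen because a match lies in the window. The windows of Hspb9, Stpg4, Crisp2 and Pbp2, also among the largest rises, hold no whole match and are not shown. The windows shown are chr8:104322077-104322226 (plus) for Cmtm2b, chr8:104293182-104293331 (minus) for Cmtm2a, chr5:128736096-128736245 (plus) for Piwil1, chr7:46861113-46861262 (plus) for Ldhc and chr11:5803797-5803946 (minus) for Pgam2.
Cmtm2b: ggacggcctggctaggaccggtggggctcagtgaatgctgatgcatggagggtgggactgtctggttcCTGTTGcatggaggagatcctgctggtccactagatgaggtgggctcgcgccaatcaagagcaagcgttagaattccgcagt
Cmtm2a: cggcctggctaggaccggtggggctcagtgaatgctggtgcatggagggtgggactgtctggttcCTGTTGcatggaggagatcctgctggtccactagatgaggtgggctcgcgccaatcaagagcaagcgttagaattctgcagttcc
Piwil1: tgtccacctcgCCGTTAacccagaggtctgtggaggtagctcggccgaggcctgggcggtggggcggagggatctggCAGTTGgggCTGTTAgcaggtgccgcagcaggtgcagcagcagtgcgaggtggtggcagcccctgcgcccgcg
Ldhc: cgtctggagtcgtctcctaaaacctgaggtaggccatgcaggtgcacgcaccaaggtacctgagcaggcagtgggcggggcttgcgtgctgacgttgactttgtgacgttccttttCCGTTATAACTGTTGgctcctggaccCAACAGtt
Pgam2: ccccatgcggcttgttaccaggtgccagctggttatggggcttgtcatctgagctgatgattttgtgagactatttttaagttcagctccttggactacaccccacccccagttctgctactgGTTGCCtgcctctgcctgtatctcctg
The Cmtm2a and Cmtm2b windows hold the same MYB letters, at 85 and 82 bases before the start. Piwil1 holds 3 matches in the window, beginning 139, 73 and 64 bases before the start.

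Among the 1091 genes that were at least 2-fold higher, the 5 mice of 16 dpp did not stand at 1 level. The median over these genes was 1.48, 1.14, 1.39, 1.60 and 1.43 on the log2(TPM + 1) scale in the 14 dpp mice, and 3.92, 3.14, 2.93, 3.10 and 3.71 in the 16 dpp mice. Mouse 1 was the highest of the 5 mice in 849 of the 1091 genes and mouse 5 in 189, and mouse 3 was the lowest in 586. The genes took 0.629 to 0.925% of all TPM in the tested table at 14 dpp and 2.29 to 4.63% at 16 dpp. They were chosen on these mice, so these levels are a description. In mice that did not choose them, the median was 0.807 to 1.28 at 12 dpp and 4.25 to 5.56 at 18 dpp. Of the rises, 247 had a mean below 1 TPM at 14 dpp and of at least 3 TPM at 16 dpp.

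**Figure D2:**
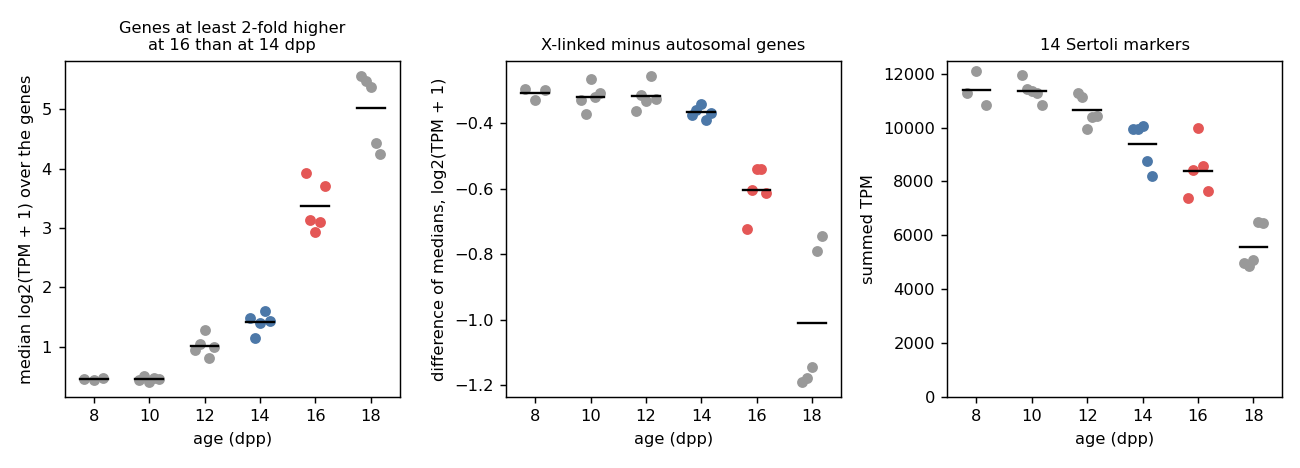
Each point is 1 mouse at the age on the x axis, black bars are means, and 14 and 16 dpp are blue and red. Left, the median log2(TPM + 1) of the 1091 genes at least 2-fold higher at 16 than at 14 dpp, which ran from 2.93 to 3.92 at 16 dpp. Middle, the median of X-linked genes minus that of autosomal genes, which was lower in all 5 mice of 16 dpp than in the 5 of 14 dpp. Right, the summed TPM of the 14 Sertoli markers, which overlapped between 14 and 16 dpp.

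The axoneme is the microtubule core of the sperm tail, with dynein arms, radial spokes and tektins, and it is built only after meiosis. Of 39 members tested, 36 rose and none fell, and 33 rose at least 2-fold, against 12.7% and 5.36% of all genes tested. Their median log2 fold change was 1.59. Cetn1, a centrin of the centriole, was at 7.21, 3.51, 5.70, 7.25 and 6.90 TPM at 14 dpp and at 134, 46.2, 49.0, 58.0 and 90.0 TPM at 16 dpp, with a log2 fold change of 3.34 ± 0.30 (limma adjusted p = 4.06e-09). Tekt3, a tektin filament protein, was below 1 TPM in every 14 dpp mouse and between 5.74 and 16.7 TPM at 16 dpp. Rsph6a, a radial spoke head protein, was between 0.38 and 1.31 TPM and then between 6.16 and 21.1 TPM. The members Dnaic2, Dnal1 and Spag6 were not called. The other 5 of the 44 listed genes (Dnah3, Odf3, Catsper1, Catsper3 and Catsper4) did not pass the filter and were at or below 0.55 TPM in all 10 mice. Members that pass the filter only at the ages where they are high favour rises, so the counts describe the tested members alone.

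The acrosome, the vesicle of sperm enzymes and egg-binding proteins, was represented in part. Only 14 of its 30 listed genes reached 3 TPM in a juvenile mouse. Of these, 11 rose and none fell, against 12.7% and 11.3% of all genes tested, with a median log2 fold change of 1.36. Spink2, an acrosomal inhibitor of serine proteases, was at 10.5, 3.63, 7.73, 13.2 and 4.76 TPM at 14 dpp and at 199, 65.5, 76.0, 85.3 and 167 TPM at 16 dpp, a log2 fold change of 3.72 ± 0.38 (limma adjusted p = 4.03e-08). Zpbp2, a zona pellucida binding protein, had a log2 fold change of 2.74 ± 0.35, and Dpy19l2, which anchors the acrosome to the nucleus, one of 2.61 ± 0.28. The 16 members below the filter, such as Acrv1, Spam1 and Izumo1, reached at most 1.64 TPM in any mouse of either age. In adult spermatocytes Acrv1 stood at 37.5 TPM and Spam1 at 9.20 TPM. The filter itself sets the 14 tested members apart from these 16.

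**Figure D3:**
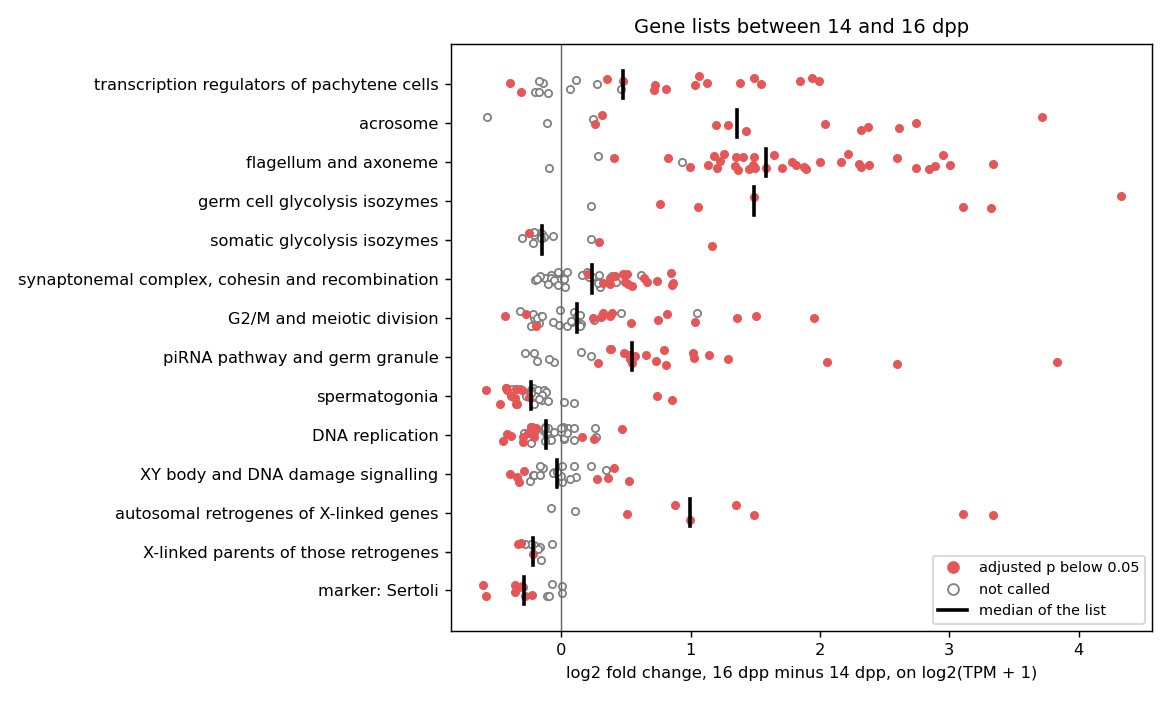
Log2 fold change from 14 to 16 dpp of the members of 14 gene lists. Each point is 1 gene, red where the limma adjusted p was below 0.05 and open where it was not, and black bars are list medians. The flagellum list has its median at 1.59 and the Sertoli list at -0.29.

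Germ cells replace several somatic enzymes of glycolysis with isozymes of their own. Of the 7 germ cell members tested, 6 rose and none fell, against 12.7% and 11.3% of all genes tested. Their median log2 fold change was 1.49. The list held 11 genes, and Gapdhs, Aldoart1, Aldoart2 and Ldhal6b did not pass the filter. Members that pass it only at the ages where they are high favour rises, so the counts describe the tested members alone. Hk1, Pfkp and Pgam2 were also on the list and are not isozymes of germ cells alone. Ldhc, the lactate dehydrogenase of the male germ line (chr7:46861203-46878142, plus strand), was at 85.1, 45.9, 69.2, 108 and 61.8 TPM at 14 dpp and at 1191, 617, 523, 531 and 936 TPM at 16 dpp. Every 16 dpp mouse was far above every 14 dpp mouse, and the log2 fold change was 3.32 ± 0.34 (limma adjusted p = 3.42e-08). Pgk2, a phosphoglycerate kinase, was between 0.18 and 1.53 TPM and then between 6.91 and 23.3 TPM. Hk1 was not called (27.8 and 32.7 TPM). Gapdhs, a sperm glyceraldehyde-3-phosphate dehydrogenase, was at or below 0.17 TPM in all 10 mice, and it was at 63.7 TPM in adult spermatocytes.

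The somatic isozymes showed no common change. Of 14 tested, 2 rose, 1 fell and 11 were not called, with a median of -0.15. Among all genes tested 12.7% rose and 11.3% fell. Ldha was the exception in size: it was between 101 and 128 TPM at 14 dpp and between 216 and 383 TPM at 16 dpp, a log2 fold change of 1.17 ± 0.15 (limma adjusted p = 1.79e-06). It lies beside Ldhc (chr7:46841475-46855627). Tpi1 rose by 0.29 ± 0.09 with overlapping mice. Gpi1 fell, from 219 ± 9.84 to 184 ± 13.3 TPM. Summed over the list, the level was 4800 to 5195 TPM at 14 dpp and 4256 to 5140 TPM at 16 dpp.

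The piRNA pathway supplies the small RNAs that repress transposons and, from pachynema on, the abundant pachytene piRNAs. Of 27 genes of the pathway and of the germ granules, 20 rose and none fell, against 12.7% and 11.3% of all genes tested. Their median log2 fold change was 0.55. Piwil1 (MIWI), the Argonaute protein that binds pachytene piRNAs, was at 31.7, 16.9, 28.3, 33.1 and 24.7 TPM at 14 dpp and at 267, 152, 128, 124 and 185 TPM at 16 dpp. No 16 dpp mouse was below 124 TPM, and the log2 fold change was 2.60 ± 0.21 (limma adjusted p = 1.27e-09). Papolb, a testis poly(A) polymerase, had a log2 fold change of 2.06 ± 0.30 and Tdrd6, given above, one of 3.84 ± 0.31. Piwil2 (MILI) rose by 0.39 and Mov10l1, the helicase of piRNA biogenesis, was not called (118 and 132 TPM).

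The precursors of the piRNAs rose with them. Of 76 precursors tested, 55 rose (72.4%), 3 fell and 27 rose at least 2-fold, against 12.7%, 11.3% and 5.36% of all genes tested. The 55 rises had a median below the filter's 3 TPM: 0.472 in the 14 dpp mice, 2.04 in the 16 dpp mice. Precursors that pass the filter only where they are high favour rises, so these counts describe the 76 tested precursors alone. Their summed level was 124, 97.9, 141, 157 and 148 TPM at 14 dpp and 448, 296, 243, 262 and 341 TPM at 16 dpp, so that every 16 dpp mouse exceeded every 14 dpp mouse. The precursor named pi-17-qC-935 was highest at 16 dpp, with 78.1 ± 30.6 TPM against 18.9 ± 4.50 TPM at 14 dpp, and its log2 fold change was 1.96 ± 0.50. The precursor pi-8-qC5-8200 went from 6.87 ± 1.22 to 26.6 ± 8.23 TPM. The precursor pi-15-qE1-3710 did not change beyond its spread (log2 fold change 0.50 ± 0.89). Precursors can share reads with overlapping genes, so the split of reads between them is uncertain.

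Of 25 regulators of transcription in pachytene cells, 14 rose and 2 fell, against 12.7% and 11.3% of all genes tested. Their median log2 fold change was 0.48. Ybx2, a Y-box protein that binds and stores germ cell mRNA, was the most abundant that rose. It was at 150, 92.3, 126, 151 and 124 TPM at 14 dpp and at 713, 475, 379, 371 and 581 TPM at 16 dpp, a log2 fold change of 1.94 ± 0.19 (limma adjusted p = 1.51e-08). The zinc finger gene Ovol2 (1.99 ± 0.33) and the RFX factor gene Rfx4 (1.85 ± 0.21) rose from means of 0.818 and 2.54 TPM. Rfx2, a factor of ciliary and flagellar genes, rose by 1.49 and Crem, a regulator of haploid genes, by 1.12. Mybl1, which encodes A-MYB, stood at 23.4 and 28.4 TPM and was not called. The 2 falls were Zbtb33 (Kaiso, X-linked) and Rfx3, at -0.40 ± 0.12 and -0.31 ± 0.11. Neither was called without 16 dpp mice 1 and 5, when 11 members rose, and Rfx3 was lost under 11 of 26 alternatives, among them median-of-ratios scaling and leaving out any 1 of 14 dpp mice 3 and 7 and 16 dpp mice 3, 4 and 5.

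Genes of meiotic prophase itself, which early pachytene cells already use, changed by small amounts. Of 45 genes of the synaptonemal complex, cohesin and recombination, 16 rose, none fell and none rose 2-fold. Among all genes tested 12.7% rose, 11.3% fell and 5.36% rose at least 2-fold. The median log2 fold change of the list was 0.24, against -0.06 over all genes. The largest rises were those of Psmc3ip, a recombination cofactor (0.86 ± 0.14), Syce1, a central element protein (0.85 ± 0.17), and Ccdc155 (KASH5), a link of telomeres to dynein (0.85 ± 0.14). Dmc1 and Prdm9, which act at the breaks of early prophase, were not called, with changes of -0.05 and -0.08. Without 16 dpp mice 1 and 5, 7 of the 45 rose. In the later-numbered mice 2 rose and 2 fell, and the median turned to -0.05.

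Of the 3 tested genes whose proteins were stained to stage the cells, 2 rose and none fell. Of all genes tested 12.7% rose and 11.3% fell. Sycp3, the axial element protein, was at 326, 266, 341, 368 and 327 TPM at 14 dpp and at 535, 439, 394, 361 and 390 TPM at 16 dpp. The ages overlapped in 16 dpp mouse 4, and the log2 fold change was 0.37 ± 0.11 (limma adjusted p = 0.0147). H2afx rose by 0.28 ± 0.09 and also overlapped. Neither Sycp3 nor H2afx was called without 14 dpp mouse 2 or without 16 dpp mouse 1 alone, and H2afx was also lost without 14 dpp mouse 1 or 7 or 16 dpp mouse 3. Stra8, of cells entering meiosis, was not called (147 ± 9.08 and 133 ± 17.0 TPM). Hist1h1t, the H1T histone by which late pachytene cells are recognised, was at or below 0.66 TPM in all 10 mice. It was not called when all genes were tested without a filter (limma adjusted p = 0.742). In the enriched adult spermatocytes, also sequenced, it averaged only 3.40 TPM. At such low levels the lack of a call does not show that the gene was unchanged.

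Of 39 genes of G2/M and of the meiotic divisions, 12 rose and 3 fell, against 12.7% and 11.3% of all genes tested. The median was 0.12. Ccna1, the germ cell cyclin needed to leave prophase, was at 0.38, 0.92, 0.47, 0.35 and 0.54 TPM at 14 dpp and at 9.18, 2.39, 4.22, 2.96 and 8.87 TPM at 16 dpp, a log2 fold change of 1.95 ± 0.42 (limma adjusted p = 0.00113). Hspa2, a chaperone needed for synaptonemal complex disassembly, rose from 141 ± 22.4 to 408 ± 101 TPM. Fbxo43 (EMI2), an inhibitor of the anaphase-promoting complex, rose by 1.36 ± 0.21. The 3 falls were Aurkb, Ccnb1 and Wee1, at -0.44, -0.27 and -0.19, and in each the mice of the 2 ages overlapped. None of these falls was called with the replicate block or without 16 dpp mice 1 and 5, and 1 was called after median-of-ratios scaling and in mice 1 to 3.

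X-linked genes were compared with autosomal genes over the same interval. Of 652 X-linked genes tested, 140 (21.5%) fell and 7 (1.07%) rose. Of 14210 autosomal genes, 1830 (12.9%) fell and 2039 (14.3%) rose, and among the 19 autosomes taken singly the falls ranged from 10.4 to 17.8% and the rises from 11.8 to 18.1%. The median log2 fold change was -0.20 for X-linked and -0.06 for autosomal genes. The X-linked and autosomal genes were also compared within each mouse. The median of X-linked genes minus that of autosomal genes was -0.37, -0.36, -0.34, -0.39 and -0.37 on the log2(TPM + 1) scale at 14 dpp and -0.72, -0.60, -0.54, -0.54 and -0.61 at 16 dpp. The ages did not overlap, and 16 dpp mouse 1 was the lowest.

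The 12 dpp mice lay between -0.36 and -0.26 on the same measure and the 18 dpp mice between -1.19 and -0.74. The X-linked falls numbered 102 under median-of-ratios scaling and 179 under quantile normalization, or 15.6% and 27.5% of X-linked genes, against 8.13% and 17.2% of autosomal genes. Without 16 dpp mouse 1 they numbered 93, and without mice 1 and 5 they numbered 36 (5.52%, against 2.95% of autosomal genes). With the Sertoli level as a covariate 60 were called (9.20%, against 6.97% of autosomal genes), and in the later-numbered mice 61 (9.36%, against 7.04%). The main comparison had 21.5% against 12.9%. In percentage points, the gap was smaller with the Sertoli covariate, in the later-numbered mice and without mice 1 and 5. It was also smaller under median-of-ratios scaling and larger under quantile normalization.

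**Figure D4:**
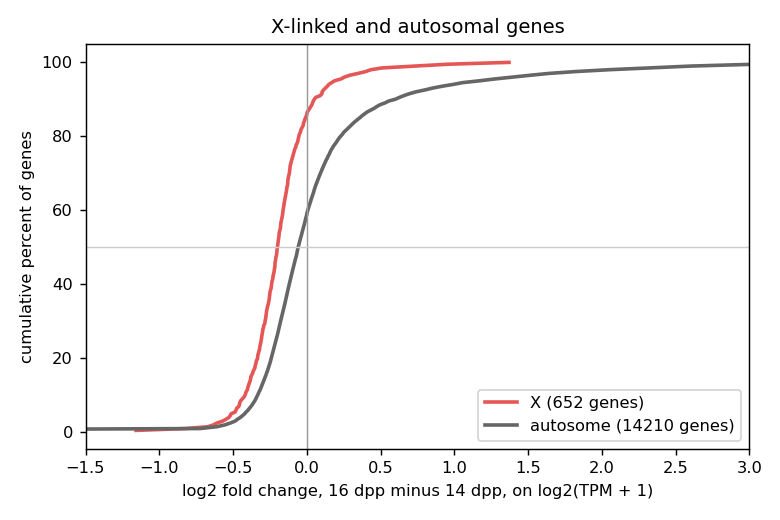
Cumulative percent of X-linked genes (red, 652) and of autosomal genes (grey, 14210) by their log2 fold change from 14 to 16 dpp. The X-linked curve lies to the left, with a median of -0.20 against -0.06, and it lacks the long tail of rises.

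The X-linked falls were partial at 16 dpp. Atrx, a chromatin remodeller of heterochromatin (chrX:105797615-105929403), was at 44.0, 52.7, 50.6, 49.0 and 56.5 TPM at 14 dpp and at 33.0, 28.1, 27.2, 36.4 and 28.6 TPM at 16 dpp. Its log2 fold change was -0.71 ± 0.11 (limma adjusted p = 2.55e-05). Its mean was 59.7, 39.7, 50.6 and 30.7 TPM at 10, 12, 14 and 16 dpp, so it was higher at 14 than at 12 dpp. It was 23.8 TPM at 18 dpp and 2.83 TPM in adult spermatocytes. Bex2 went from 136 ± 15.7 to 90.6 ± 14.9 TPM and Nudt11, an inositol phosphate hydrolase, from 15.2 ± 1.75 to 9.44 ± 1.05 TPM. The ferritin-like pseudogene Fthl17-ps1 (-1.16 ± 0.25) and Pabpc1l2b-ps (-0.65 ± 0.19) completed the 5 largest X-linked falls and can share reads with related copies. Fthl17-ps1 likewise averaged 9.20 TPM at 12 dpp and 16.4 TPM at 14 dpp before 6.67 TPM at 16 dpp. Bex2, Nudt11 and Pabpc1l2b-ps had lower means at 14 than at 12 dpp. Only Gm3880 and Sowahd rose with no overlap between the ages, from means of 5.45 and 5.06 TPM to 13.8 and 9.23 TPM. The other 5 X-linked rises, named after their values were seen, were Tsga8, Fthl17-ps3, Trpc5os, G530011O06Rik and Tslrn1. Of 20 Y-linked genes tested, 3 fell and none rose.

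Several X-linked housekeeping genes have autosomal retrogenes, intronless copies expressed in male germ cells. Of 9 retrogenes tested, 7 rose and none fell, against 12.7% and 11.3% of all genes tested, with a median log2 fold change of 1.00. The list held 10 genes, and G6pd2, at 0 in all 10 mice, did not pass the filter. The filter favours rises among members that pass it only at the ages where they are high, so the counts describe the tested members alone. Pgk2 and Pdha2 were also on the glycolysis list and Cetn1 on the flagellum list. Of the 10 X-linked parents of the listed genes, 3 fell (Zfx, Cstf2 and G6pdx) and none rose, with a median of -0.22. Of all X-linked genes tested 21.5% fell and 1.07% rose. Pgk2 rose by 3.11 ± 0.35 while its parent Pgk1 was at 114, 117, 111, 124 and 106 TPM at 14 dpp and at 90.5, 103, 107, 108 and 101 TPM at 16 dpp and was not called. Pdha2 was at 20.6, 15.1, 23.4, 22.8 and 18.2 TPM and then at 86.4, 55.5, 45.8, 44.5 and 62.4 TPM, and its parent Pdha1 was not called (33.0 and 28.4 TPM).

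By 16 dpp 3 of the copies had passed their parents in mean level. Cetn1 was at 75.4 TPM against 42.1 TPM for Cetn2, Pdha2 at 58.9 against 28.4 TPM for Pdha1, and the ribosomal copy Rpl10l at 155 against 95.3 TPM for Rpl10. At 14 dpp each of these 3 copies was below its parent. Rbmxl2, a splicing factor copy, was above Rbmx at both ages and rose by 0.51 ± 0.12. Timm8a2 and Zfa-ps also rose, by 1.35 ± 0.17 and 0.88 ± 0.19, and stayed below their parents. Cstf2t and Utp14b were not called, at 0.11 ± 0.08 and -0.08 ± 0.13. Copies and parents share sequence, so that the split of reads between them is uncertain. The fall of G6pdx was called in 13 of 26 alternatives, and those of Zfx and Cstf2 in 23 and 24. G6pdx was lost under median-of-ratios scaling. It was also lost without any 1 of 14 dpp mice 1 to 3 or 16 dpp mice 1, 2 and 5.

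**Figure D5:**
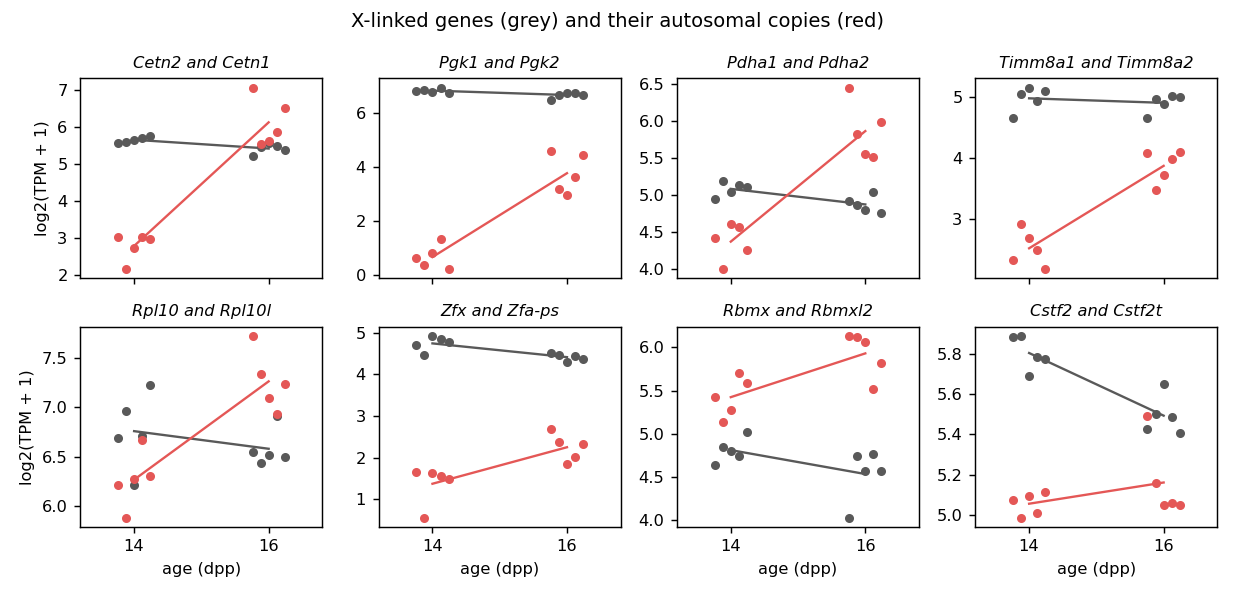
Level of 8 X-linked genes (grey) and of their autosomal copies (red) in each mouse, on the log2(TPM + 1) scale, at 14 and 16 dpp. Lines join the means of 5 mice. The copies of Cetn2, Pdha1 and Rpl10 pass their parents by 16 dpp, and the y axes differ between panels.

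The 10 largest falls were ranked in the same way, leaving out Gm, Rik and NONCODE genes, some of which fell more. Of these, 8 averaged 1.51 TPM or less in adult spermatocytes, Emilin3 (8.83 TPM) and Socs2 (5.73 TPM) being the exceptions. Sel1l3, a Sel1-repeat gene (chr5:53107083-53213927, minus strand), was at 21.3, 21.0, 25.2, 16.8 and 21.7 TPM at 14 dpp and at 5.17, 6.97, 10.4, 4.89 and 4.61 TPM at 16 dpp. The 2 ages were well apart, and the log2 fold change was -1.63 ± 0.16 (limma adjusted p = 1.47e-08). It stood at 2.65 TPM at 18 dpp and at 0.135 TPM in adult spermatocytes. Shisa8 and Shisa6, membrane proteins known from glutamate receptor complexes, changed by -0.99 ± 0.18 and -0.88 ± 0.16. Emilin3, of the extracellular matrix, went from 19.5 ± 1.93 to 9.94 ± 0.857 TPM, and Socs2, a suppressor of cytokine signalling, from 31.4 ± 4.47 to 17.2 ± 1.19 TPM. Fam124a, Wfdc2, Tcp11l1, Lpcat2 and the X-linked Fthl17-ps1 made up the rest of the 10.

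Of these 10 falls, Sel1l3, Shisa8, Emilin3 and Fam124a were called under every alternative, while Tcp11l1 was lost under 10 of 26. Sertoli markers fell with this set (8 of 14), from a summed mean of 9381 ± 854 to 8397 ± 1016 TPM, and their part in it was not tested.

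Spermatogonial genes fell modestly. Of 33 tested, 12 fell and 2 rose, against 11.3% and 12.7% of all genes tested. Their median log2 fold change was -0.23. Ccnd2, a cyclin of dividing spermatogonia, was at 42.6, 43.0, 42.2, 41.6 and 38.2 TPM at 14 dpp and at 24.5, 25.8, 29.5, 30.2 and 27.8 TPM at 16 dpp, a log2 fold change of -0.58 ± 0.10 (limma adjusted p = 6.57e-05). Crabp1, of retinoic acid binding, changed by -0.47 ± 0.11 and Ccnd1 by -0.43 ± 0.08. Kit, Zbtb16, Sohlh1, Sall4 and Dmrt1 were among the other falls. The 2 rises were Id4, from 21.8 ± 2.94 to 40.5 ± 6.67 TPM, and Dmrtb1, from 68.8 ± 6.87 to 118 ± 31.7 TPM. Id4 is known as a marker of spermatogonial stem cells, and Dmrtb1 acts at the entry into meiosis. Without 16 dpp mice 1 and 5, 5 members fell and 1 rose.

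Of 43 DNA replication genes, 10 fell and 3 rose, against 11.3% and 12.7% of all genes tested, with a median of -0.12. In mice 1 to 3 and with the replicate block 3 fell and 3 rose, and in the later-numbered mice 14 fell and none rose. Mcm2, a helicase subunit, fell from 95.6 ± 8.94 to 72.8 ± 5.15 TPM, and Cdt1, a licensing factor, and the X-linked polymerase gene Pola1 changed by -0.42 ± 0.10 and -0.45 ± 0.11. The rises were Gins1, Rfc2 and Pcna, by 0.47, 0.25 and 0.16, and all 3 were lost without 16 dpp mice 1 and 5. Of 25 genes of the XY body and of DNA damage signalling, 4 rose and 4 fell, against 12.7% and 11.3% of all genes tested. These counts are near those shares, and the split depended on the mice. In mice 1 to 3 it was 4 and 0, in the later-numbered mice 0 and 5, with the replicate block 3 and 0, and without 16 dpp mice 1 and 5 it was 0 and 2. The median of that list was -0.03 and turned to 0.03 under median-of-ratios scaling. Mdc1 and Atr, which spread and start the signal over the XY body, rose by 0.52 ± 0.13 and 0.41 ± 0.12, as did Rad9b and H2afx. Atm, Brca1, Clspn and Rad9a fell, by 0.39, 0.34, 0.33 and 0.29 on the log2 scale, and none of these falls was called in mice 1 to 3 or with the block.

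The share of rises varied with the kind of gene. Of 620 genes with Rik names, 185 (29.8%) rose and 28 (4.52%) fell. Of 787 Ensembl long noncoding RNAs, 170 (21.6%) rose and 30 fell, against 1838 (13.5%) and 1928 of 13660 protein-coding genes. Of the NONCODE genes, 483 (9.17%) rose and 310 (5.89%) fell. The rises had a median of 1.12 TPM at 14 dpp among Rik genes and 0.686 TPM among Ensembl long noncoding RNAs. Among NONCODE and protein-coding rises it was 1.03 and 15.6 TPM. Genes that pass the filter only at the ages where they are high favour rises, so these shares describe the tested genes alone. 1700123L14Rik, on chromosome 6, was at 0.70, 0.42, 1.71, 2.23 and 1.33 TPM at 14 dpp and at 67.2, 21.6, 24.5, 35.6 and 76.7 TPM at 16 dpp, a log2 fold change of 4.22 ± 0.35 (limma adjusted p = 1.59e-09). 1700029F12Rik and 1700074P13Rik, also protein coding, followed with 4.18 ± 0.29 and 3.74 ± 0.27.

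The named NONCODE rises were NONMMUG034231 (3.89 ± 0.30), NONMMUG003663 (3.56 ± 0.32) and NONMMUG018502, which was listed at 0 in all 14 dpp mice and at 8.15 to 46.4 TPM at 16 dpp, so that no fold is given. NONMMUG021139, NONMMUG018084 and NONMMUG030403 had the largest falls, at -2.32 ± 0.60, -1.22 ± 0.35 and -1.08 ± 0.31. Among Gm genes, Gm8783 and Gm15801 carried identical values in every mouse, 1.28, 5.85, 6.35, 2.16 and 1.34 TPM at 14 dpp and 0 at 16 dpp, and are pseudogene copies whose reads cannot be told apart. The antisense gene Gm16280 changed by -0.83 ± 0.24 and lies opposite Stab2.

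The step from 14 to 16 dpp was compared with the steps before and after it. A test of the second difference found 481 genes (2.36%) whose change from 14 to 16 dpp differed from that from 12 to 14 dpp, 412 in the positive direction. The second difference contains the change from 14 to 16 dpp, so its direction is not independent of the rises. This count was 187 without 14 dpp mouse 2, 230 without 14 dpp mouse 7, 285 without 14 dpp mouse 3, 737 without 16 dpp mouse 3 and 0 in the later-numbered mice alone. For Pebp4 the mean was 0.484 TPM at 12 dpp, 0.708 at 14 dpp and 37.0 at 16 dpp, and for Pgam2 it was 3.03, 4.13 and 104 TPM.

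For the following step, only 2 genes (0.00982%) had a change from 16 to 18 dpp that differed from the change from 14 to 16 dpp, though 3037 had an unadjusted p below 0.05. The 18 dpp mice formed separate levels, with mice 1 to 3 at 5.37 to 5.56 and mice 4 and 5 at 4.25 and 4.43 on the median of the 1091 genes. In mice 1 to 3 alone 2361 genes were called on this contrast and 608 on that with the step before, so that the order of the counts turned, and in the later-numbered mice both counts were 0.

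Mice of 12 and 18 dpp, none of which is a 14 or 16 dpp mouse, were compared in a fit of their own. In that fit 5520 genes (27.1%) were higher and 7206 (35.4%) lower at 18 dpp. A fit of the 14 and 16 dpp mice alone called 2690 rises (13.2%) and 2473 falls (12.1%). Of the rises, 2609 were also higher at 18 than at 12 dpp, which was 97.0% of the rises and 47.3% of the genes higher at 18 dpp. Of the falls, 2117 were also lower, 85.6% of the falls and 29.4% of the genes lower at 18 dpp. Only 1 rise and 6 falls were called in the opposite direction.

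Adult spermatocytes kept most of what rose. Of the 2594 rises, 96.9% were at 3 TPM or more in all 4 adult samples, as were 44.2% of the falls and 55.7% of all genes tested. The median adult level was 82.2 TPM for the rises, 2.97 TPM for the falls and 5.92 TPM for all genes. The adult samples also contained spermatid messages, with Prm1 at 209 TPM and Tnp1 at 273 TPM, so that their germ cells were not spermatocytes alone. Ldhc reached 6852 ± 140 TPM in them (SD, n = 4), Crisp2 2654 ± 32.2 TPM and Ybx2 2609 TPM.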

How the data were processed

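The members and gene lists were chosen with earlier results of these data known. The authors sequenced poly-A RNA as paired-end reads, aligned it with Bowtie 1.0.0 to an mm10 transcriptome of Ensembl, NONCODE and piRNA precursor transcripts, and estimated levels with RSEM 1.2.8. They deposited transcript and adult values as TPM. The deposited juvenile gene table is a score, exp(log2(TPM + 1)) - 1, which was converted back to TPM, and 80 of its 20368 genes differed by over 0.2 TPM from the summed transcripts. TPM keeps no read counts, so depth is unknown. The deposited substage columns hold the authors' findings and were not used.

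Mice were grouped by labelled age, and each mouse was 1 sample. limma 3.58.1 (R 4.3.3, trended prior) compared ages on log2(TPM + 1) in 28 juvenile mice, two-sided, with Benjamini-Hochberg adjustment over all genes. The code was tested on simulated data. Named genes with an adjusted p below 0.05, no overlap of mice and at least 3 TPM at the higher age were the 10 largest rises and falls among other Ensembl genes, 3 each among Gm/Rik and NONCODE genes, and 5 falls and up to 3 rises on X. The 3 highest piRNA precursors, the called members of each list with the largest changes, and all stained proteins, retrogenes and parents were named without those criteria. List members that were not called are named as contrasts. Positions are from GENCODE on GRCm38, for 14896 Ensembl genes. Alternatives changed the pseudocount, filter, scaling, model and mice.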

Additional observations from a re-analysis of the deposited data

Results flagged for a closer look

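Of 230 groups of 5 mice examined (111 named genes and 4 summary levels at 14 and 16 dpp), 15 had 1 mouse far from the other 4. Chance alone flags about 1 in 20 such groups. A group was listed where the gap to the nearest mouse, divided by the range of the group, was above 0.71.

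Single high mice at 16 dpp were found in 6 genes. Mouse 1 stood apart in the piRNA precursor pi-17-qC-935 (132 TPM, next 73.0), in the checkpoint gene Rad9b (62.2 TPM, next 47.1) and in the retrogene Cstf2t (44.0 TPM, next 34.7). Mouse 5 stood apart in NONMMUG018502 (46.4 TPM, next 9.67). Mouse 4 stood apart in Rpl10 (119 TPM, next 92.6) and in NONMMUG021139 (2.09 TPM, next 0.32).

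At 14 dpp mouse 2 was the lowest in 5 genes: NONMMUG018084 (3.54 TPM, next 5.23), the precursor pi-8-qC5-8200 (4.74 TPM, next 7.05), Zbtb33 (16.3 TPM, next 18.1), Ccdc155 (19.7 TPM, next 26.6) and Zfa-ps (0.47 TPM, next 1.78). Mouse 7 was the lowest in Ccnd2 (38.2 TPM, next 41.6). Mouse 1 was the highest in Hspb9 (5.29 TPM, next 2.19), mouse 3 in Fam124a (14.0 TPM, next 11.4) and mouse 6 in Rsph6a (1.31 TPM, next 0.60). In Hspb9, Fam124a and Rsph6a the ages still did not overlap.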

How the results depend on the processing

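Counts were recomputed under 26 alternatives, 2 of them chosen after the data were seen. Leaving out 1 mouse at a time gave 2108 to 2678 rises, 1430 to 2608 falls, 959 to 1197 rises and 17 to 37 falls of at least 2-fold, 93 to 155 X-linked falls, 187 to 737 differences from the step before and 1 to 6 from the step after. Falls numbered 1454 after median-of-ratios scaling. Falls of at least 2-fold numbered 15 after median-of-ratios scaling, 63 after quantile normalization, 82 and 5 with pseudocounts of 0.1 and 3, and 40 both in mice 1 to 3 and in the later-numbered mice. Rises of at least 2-fold numbered 689 with a pseudocount of 3. In the later-numbered mice there were 1424 rises, 1146 falls and 61 X-linked falls, and 0 genes on either second difference. Differences from the step before numbered 291 without a filter and 212 with a pseudocount of 0.1. Differences from the step after numbered 4 with median-of-ratios scaling or the number set as covariate, 14 without a filter, 11 without a trend, 12 after quantile normalization, 1 with the stricter filter and 2361 in mice 1 to 3. With the Sertoli level as covariate there were 1239 falls, 60 X-linked falls and 1325 and 274 differences from the step before and after. Without both 16 dpp mice 1 and 5 there were 1507 rises, 525 falls, 13 falls of at least 2-fold, 36 X-linked falls and 149 and 8 such differences.

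Mouse numbers did not pair the samples: deviations of same-numbered mice correlated at 0.04, -0.00 and 0.05, and the same number was the best match for 2 of 3 mice of 14 dpp and 0 of 3 of 16 dpp. The replicate block gave 2606 rises, 1674 falls, 1254 and 31 changes of at least 2-fold, 147 X-linked falls and 1 difference from the step after.

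The changes of single genes kept direction and call in 2671 values, lost the call in 199 and gained it in 6. The sign turned, never in a called gene, for pi-15-qE1-3710 (-0.97 in the later-numbered mice, -0.28 to 0.86 leaving out 1 mouse, lowest without 14 dpp mouse 2), Cstf2t (-0.00884, later-numbered mice), Stra8 (0.0232, mice 1 to 3), Utp14b (0.0114, block) and Timm8a1 (0.0181, Sertoli covariate). The cause of these moves was not tested. With no read counts, low genes carry an unknown counting error.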

Other observations

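Of 8 Leydig markers, Hsd17b3 fell (17.4 ± 3.03 to 11.9 ± 1.09 TPM) and none rose. Of 7 macrophage markers, Cd74 rose (11.2 ± 3.10 to 17.5 ± 4.72 TPM) and none fell. The shares of all genes tested were 11.3% for falls and 12.7% for rises, and both counts are near them. Hsd17b3 was called in 21 of 26 alternatives and Cd74 in 15. None of 6 peritubular, 6 endothelial and 5 red blood cell markers was called. All 6 peritubular markers had log2 changes below 0 (median -0.37), and 4 were called lower in mice 1 to 3 and 3 with the number set as covariate or without 16 dpp mouse 4. All 7 macrophage markers had log2 changes above 0 (median 0.34). None of 12 genes of the dissociation stress response, such as Fos and Egr1, was called, and their median was -0.17. In mice 1 to 3 and with the replicate block, however, 7 of the 12 fell, with medians of -0.44, and in the later-numbered mice none was called (median 0.06). The part of cell handling in the other changes was not tested.

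The 2 genes whose change from 16 to 18 dpp differed from that from 14 to 16 dpp, named after their values were seen, were NONMMUG033062 and Tmem37. NONMMUG033062 was listed at 0 in all 14 and 16 dpp mice and averaged 5.01 TPM at 18 dpp. Tmem37 averaged 7.16 TPM at 14 dpp, 11.6 TPM at 16 dpp and 4.86 TPM at 18 dpp (limma adjusted p = 0.0286).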
